A study of Homo sapiens with 24 samples.

Results

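The 10 genes described here encode albumin and other proteins that the liver makes for plasma, or that mark hepatocytes: ALB, AFP, TTR, RBP4, TF, AMBP, AHSG, FABP1, ARG1 and ASGR2. They were chosen by name, as the gene IDs of the expression table that GENCODE release 29 assigns to those symbols, and are 10 of the 57979 gene IDs kept. All 10 passed the filter on low values, which kept genes averaging 0.5 FPKM or more, as did 17252 genes in all. FPKM is fragments per kilobase of transcript, scaled to the mapped fragments of the library, so levels of different genes are compared per length. The list is broader than plasma carriers. FABP1 and ARG1 work inside the cell, and ASGR2 sits on the cell surface.

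The cells were Huh7, a human hepatoma line, as ABHD6 knockout (KO) cells or wild type (WT) cells. ABHD6 is a serine hydrolase that cleaves monoacylglycerols. Cells of each genotype were harvested either from basal medium, called 0 h, or following exposure to 800 µM palmitic acid, a saturated fatty acid, for 24 h or 48 h, and each of the 6 groups has 4 libraries. Since cells were not kept in culture for those times without the acid, the acid and the time cannot be told apart. The labels do not give the number of KO clones or state that the 4 libraries come from different cultures, so the p-values reflect only library-to-library spread, which may be technical. The protocol describes a harvest on day 1 only, and the 48 h groups come from the sample titles and the design text.

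Hepatocytes secrete most plasma proteins, and albumin is the most abundant of them. Plasma carriers bind poorly soluble or reactive cargo: albumin takes fatty acids and bilirubin, transferrin takes iron, and transthyretin travels with retinol-binding protein as the carrier of vitamin A. Alpha-fetoprotein is the fetal relative of albumin, falls silent in the adult liver and is made again in many hepatomas. Their genes are switched on in hepatocytes by factors such as HNF1, HNF4 and C/EBP, which bind near the start sites.

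The promoters of 4 genes are printed because FABP1 and TF are the members that differed between KO and WT cells, while ALB and AFP are neighbouring relatives on chromosome 4 with unlike values below. Each runs from 250 bases before to 50 after a RefSeq start (GRCh38.p14), 5′ to 3′ on the strand of the gene. Capitals mark matches to an HNF1 core (GTTAAT), a C/EBP site (TTGCNNAA) or a TATA box (TATAAA), searched on both strands, so that a match on the other strand shows as its reverse complement. FABP1 lies at chr2:88128013-88128312 on the minus strand, TF at chr3:133746143-133746442, ALB at chr4:73404037-73404336 and AFP at chr4:73435971-73436270, all 3 on the plus strand.
FABP1: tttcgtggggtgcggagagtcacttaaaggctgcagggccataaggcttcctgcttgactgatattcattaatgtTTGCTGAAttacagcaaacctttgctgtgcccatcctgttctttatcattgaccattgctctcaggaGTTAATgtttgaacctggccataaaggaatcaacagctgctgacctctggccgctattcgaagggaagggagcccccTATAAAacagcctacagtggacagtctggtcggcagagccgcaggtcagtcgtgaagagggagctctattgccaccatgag
TF: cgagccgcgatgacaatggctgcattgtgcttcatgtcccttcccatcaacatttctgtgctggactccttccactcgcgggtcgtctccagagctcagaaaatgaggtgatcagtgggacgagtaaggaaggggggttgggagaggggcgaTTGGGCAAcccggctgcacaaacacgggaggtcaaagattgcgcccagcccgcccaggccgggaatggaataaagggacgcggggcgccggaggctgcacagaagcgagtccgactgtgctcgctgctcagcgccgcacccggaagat
ALB: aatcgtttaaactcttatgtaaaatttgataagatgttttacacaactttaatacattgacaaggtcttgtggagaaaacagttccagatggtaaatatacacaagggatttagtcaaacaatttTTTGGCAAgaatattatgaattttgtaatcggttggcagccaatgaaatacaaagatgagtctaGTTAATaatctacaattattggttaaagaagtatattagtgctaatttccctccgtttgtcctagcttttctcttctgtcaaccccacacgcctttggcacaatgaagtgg
AFP: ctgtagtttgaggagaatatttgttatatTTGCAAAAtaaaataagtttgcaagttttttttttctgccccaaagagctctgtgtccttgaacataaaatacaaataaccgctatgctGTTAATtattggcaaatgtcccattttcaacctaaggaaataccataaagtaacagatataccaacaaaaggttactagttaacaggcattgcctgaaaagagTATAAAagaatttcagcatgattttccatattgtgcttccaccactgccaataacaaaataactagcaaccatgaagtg
Of all 35116 promoters of the same length, 6.88% held the HNF1 core, 10.5% the C/EBP site and 11.5% the TATA box, and 0.384% held an HNF4 site (CAAAGTCCA). FABP1 and AFP held the first 3, ALB held the HNF1 and C/EBP letters, and TF held only the C/EBP letters. A match describes letters, and no match says only that these letters are absent from this window. RefSeq promoters matched 8 of the 10 genes, and TF and RBP4 had more than 1 start.

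The FPKM values rest on few reads. The steps between the smallest values placed about 394068 to 719151 fragments behind each library, with 569772 to 719151 at 48 h and 394068 to 504793 at 0 h. ABHD6 itself was above 0 in 4 of 12 KO libraries and 3 of 12 WT libraries, at 0.693 to 1.16 FPKM, so the genotype labels could not be checked. Genes annotated as antisense held 44.0% to 58.1% of summed FPKM and the strand setting used by the authors is unknown. No member has an exon overlapping an exon on the opposite strand, and other genes that do are marked ° below. Of the hepatocyte markers SERPINA1, APOA1°, APOB°, HNF4A, APOH, FGB and CPS1, all were above 0 in at least 1 library of the series, and CPS1 was at 0 in 21 of 24. Of the markers of other cell types, DES and LRAT (stellate), CDH5, KDR and VWF (endothelial) and KRT7 (biliary) were at 0 in every library. SOX9 (biliary, 10.2 to 32.96 FPKM) and PECAM1 (endothelial, 0.462 to 18.04 FPKM) were above 0 in all 24, and EPCAM, CD68°, CD74 and STAB2° in 17 to 21. Summed markers reached at most 10.1 FPKM for stellate, 43.4 for immune, 26.98 for endothelial and 52.6 for biliary cells, against 336 to 757 for hepatocytes.

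FABP1 (ENSG00000163586.9), the cytosolic protein that binds long-chain fatty acids in hepatocytes, was the highest of the 10 genes and was lower in KO cells. It lies on chromosome 2 from 88122982 to 88128116 on the minus strand (GRCh38). At 0 h it had 379, 349, 476 and 337 FPKM in KO libraries, against 499, 757, 825 and 732 FPKM in WT libraries. The groups did not overlap, and the lowest WT library was the only one near the highest KO library. At 24 h it had 306, 383, 439 and 284 FPKM in KO libraries, against 600.1, 418, 426 and 357 FPKM in WT libraries, with overlap. At 48 h it had 296, 295, 389.6 and 249 FPKM in KO libraries, against 460.1, 554, 493 and 387 FPKM in WT libraries, where only the highest KO library reached the lowest WT library. Averaged over the 3 times, the log2 fold change of KO over WT was -0.61 ± 0.11 (SE), a fold of 0.655 with a 95% interval of 0.561 to 0.765 (limma, adjusted p = 0.0101). All folds here are of FPKM + 0.5, and adjusted p-values are Benjamini-Hochberg over the 17252 genes, with a call under 0.05. The 95% intervals are per gene and not adjusted for the number of genes, so an interval can exclude equality without a call. In bulk RNA, fewer cells of a type and less RNA per cell cannot be told apart. Behind each FABP1 value stood about 78.4 to 210 fragments.

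TF (ENSG00000091513.14), which encodes transferrin, the iron carrier of plasma, was also lower in KO cells. It lies on chromosome 3 from 133745956 to 133796640 on the plus strand. At 0 h it had 84.9, 75.3, 88.1 and 81.5 FPKM in KO libraries, against 118, 109, 137 and 195 FPKM in WT libraries. At 24 h it had 91.0, 99.5, 88.7 and 84.8 FPKM in KO libraries, against 163, 118, 138 and 131 FPKM in WT libraries. At 48 h it had 151, 159, 147 and 131 FPKM in KO libraries, against 203, 232, 196 and 189 FPKM in WT libraries. The KO libraries lay below all WT libraries at every time, and the KO libraries of a group were close together. The log2 fold change over the 3 times was -0.60 ± 0.09, a fold of 0.662 with a 95% interval of 0.582 to 0.753 (limma, adjusted p = 0.00183). By time it was -0.72 ± 0.16 at 0 h, -0.59 ± 0.16 at 24 h and -0.48 ± 0.16 at 48 h, none called alone (adjusted p = 0.0768, 0.467 and 0.488). The longest TF transcript marked as a principal form in GENCODE 29 has 20602 bases. The TF locus overlaps that of SRPRB on the same strand, so the level of TF relative to other genes is uncertain. SRPRB, at a mean of 16.4 FPKM, had a log2 fold change of 0.05 ± 0.27 between KO and WT over the 3 times (limma, adjusted p = 0.986).

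**Figure D1:**
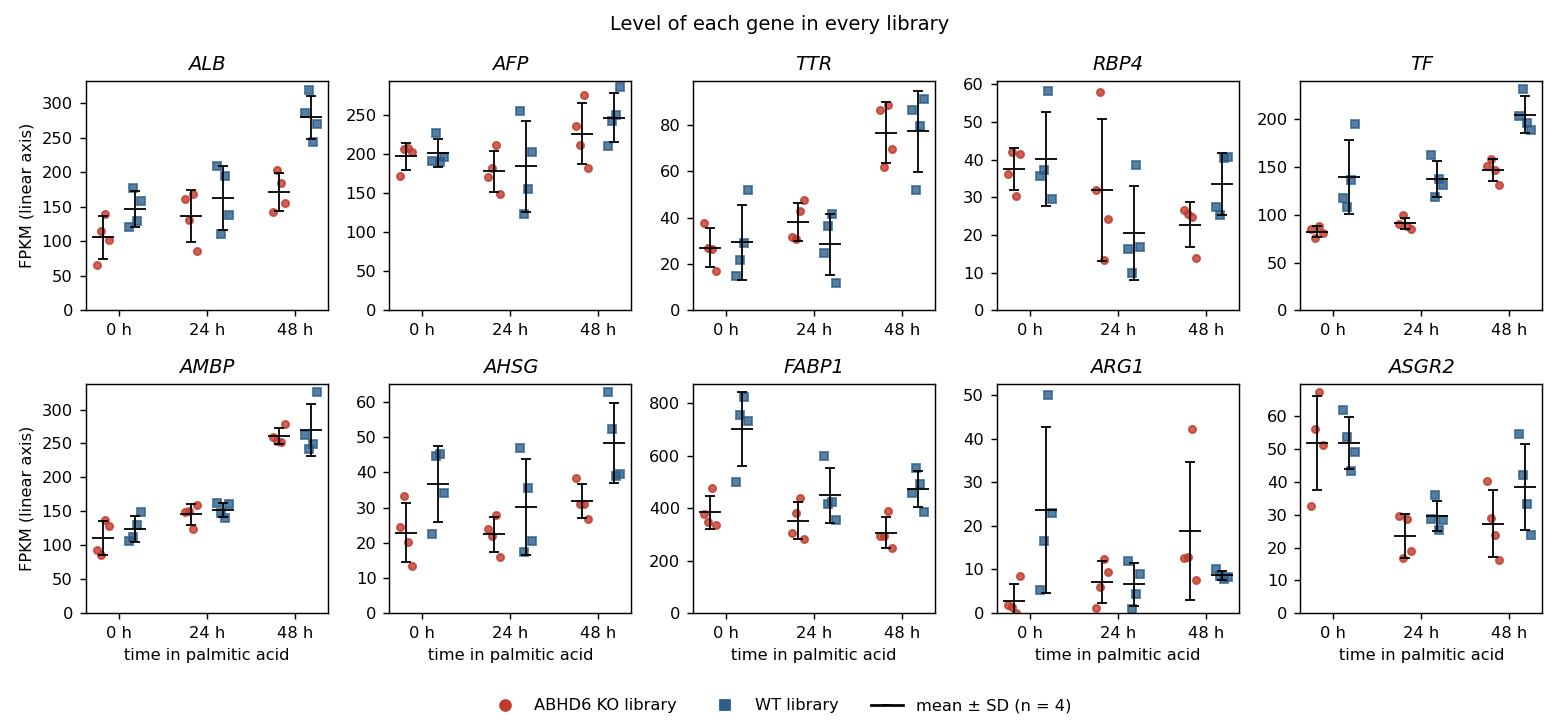
FPKM (linear axis) of each of the 10 genes in every library at 0 h, 24 h and 48 h, with ABHD6 KO libraries as red circles left of WT libraries as blue squares; bars are mean ± SD (n = 4). TF in KO libraries lies below TF in WT libraries at each time, and FABP1 at 0 h has 337 to 476 FPKM in KO libraries against 499 to 825 FPKM in WT libraries.

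Across the 10 genes, KO against WT over the 3 times gave 2 calls, FABP1 and TF, both lower. Of all genes tested 0.18% were called, and 0.151% were called lower. FABP1 ranked 17 and TF 9 by p among all genes. The log2 fold change was below 0 for 9 of 10 members, with a median of -0.39 against 0.0002 over all genes tested. No member was called at 0 h, 24 h or 48 h alone, where 0.0985%, 0.0116% and 0.0638% of all genes were called. At an unadjusted p under 0.05 there were 5 members at 0 h, 1 at 24 h and 3 at 48 h, against 1194, 892 and 1131 of all 17252 genes. The 4 KO and 4 WT libraries did not overlap for 2 members at 0 h, 1 at 24 h and 3 at 48 h, against 2.72%, 2.92% and 4.11% of all genes. The log2 fold change was below 0 for 10 members at 0 h, 7 at 24 h and 8 at 48 h, or 7 at 48 h with quantile normalization or rescaling to equal summed FPKM. The calls of FABP1 and TF held in each of the 24 fits with 1 library left out, with adjusted p up to 0.0278 and 0.00597. Both ended when the variance was fitted without an intensity trend (adjusted p = 0.176 and 0.106).

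**Figure D2:**
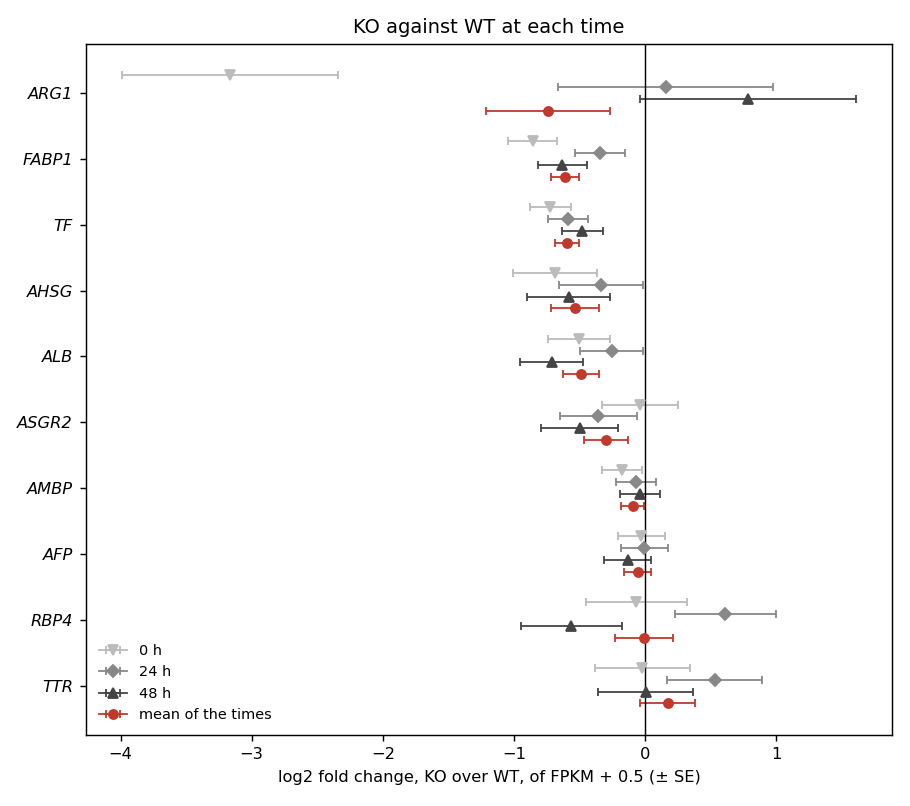
Log2 fold change of FPKM + 0.5, KO over WT, with SE, for each gene at 0 h, 24 h and 48 h (grey) and for the mean of the times (red). FABP1 (-0.61) and TF (-0.60) over the 3 times are the 2 called values, and ARG1 at 0 h (-3.17) is the most distant point.

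Summed hepatocyte markers were also lower in every KO library than in every WT library of the same time. Summed over the 7 markers, KO libraries had 528 to 565 FPKM at 0 h against 593 to 719.8 FPKM in WT libraries. At 24 h the sums were 336 to 435 FPKM in KO libraries and 487 to 587 FPKM in WT libraries. The 48 h sums were 524 to 575 FPKM in KO libraries and 614 to 757 FPKM in WT libraries. Of all single genes tested, 2.72% at 0 h, 2.92% at 24 h and 4.11% at 48 h did not overlap. A large part of each sum was SERPINA1, at a mean of 304 FPKM in KO and 346 FPKM in WT libraries at 0 h. SERPINA1 alone overlapped between the genotypes at each time, with 322 to 344 FPKM in KO and 298 to 448 FPKM in WT libraries at 48 h. The sums do not show that each marker was lower. Of the 6 markers tested, FGB (fibrinogen beta chain, -0.54 ± 0.09, limma, adjusted p = 0.00759) and APOA1° (apolipoprotein A-I, -0.64 ± 0.11, adjusted p = 0.0101) were lower in KO cells over the 3 times. Their calls also ended without the variance trend, and 0.151% of all genes were called lower in that comparison. The part of a shared shift of hepatocyte genes in the lower FABP1 and TF was not tested.

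ALB (ENSG00000163631.16), albumin, lies on chromosome 4 from 73397114 to 73421412 on the plus strand. At 0 h it had 65.7, 115, 140.0 and 102 FPKM in KO libraries, against 119.9, 177, 129.5 and 159 FPKM in WT libraries. At 24 h it had 162, 130.5, 169 and 85.8 FPKM in KO libraries, against 209, 109.8, 194 and 139 FPKM in WT libraries. At 48 h it had 142, 203, 184 and 156 FPKM in KO libraries, against 285, 319, 244 and 269 FPKM in WT libraries. The genotypes overlapped at 0 h and 24 h and were apart at 48 h. KO over WT gave a log2 fold change of -0.71 ± 0.24 at 48 h (limma, adjusted p = 0.488) and -0.49 ± 0.14 over the 3 times, a fold of 0.712 with a 95% interval of 0.584 to 0.869 (adjusted p = 0.256), and neither was called. WT at 48 h had the highest mean of the 6 groups at 279.6 ± 31.5 FPKM (SD, n = 4), above every library of the others. Below it came KO at 48 h (171 ± 27.5), WT at 24 h (163 ± 46.5), WT at 0 h (146 ± 26.4), KO at 24 h (137 ± 37.7) and KO at 0 h (106 ± 31.0), and each of these neighbours overlapped the next.

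AFP (ENSG00000081051.7), alpha-fetoprotein, lies beside ALB on chromosome 4 from 73431138 to 73456174 on the plus strand. At 0 h it had 172, 206, 207 and 202 FPKM in KO libraries, against 191, 227, 190.1 and 196 FPKM in WT libraries. At 24 h it had 171, 182, 211 and 148 FPKM in KO libraries, against 255, 123, 156 and 203 FPKM in WT libraries. At 48 h it had 235, 212, 275 and 182 FPKM in KO libraries, against 209.8, 242, 249.8 and 285 FPKM in WT libraries. The groups overlapped at every time. Over the 3 times the fold of KO over WT was 0.96 with a 95% interval of 0.828 to 1.12 (limma, adjusted p = 0.944). Each value rested on about 176 to 510 fragments, and on the log2 scale the SE was 0.10, against 0.14 for ALB.

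Within a library, AFP over ALB is a ratio of 2 FPKM values that does not depend on the scaling of the library. It was 1.97 ± 0.479 in KO and 1.39 ± 0.167 in WT libraries at 0 h (SD, n = 4 each), 1.36 ± 0.283 in KO and 1.15 ± 0.274 in WT at 24 h, and 1.34 ± 0.283 in KO and 0.894 ± 0.171 in WT at 48 h. The 4 WT libraries at 48 h had 0.735 to 1.06, all below the 1.23 to 1.59 of WT libraries at 0 h. KO libraries at 48 h had 1.04 to 1.65 and overlapped both the WT libraries at 48 h and the KO libraries at 0 h, which had 1.48 to 2.62. These ratios are descriptions, with no test.

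**Figure D3:**
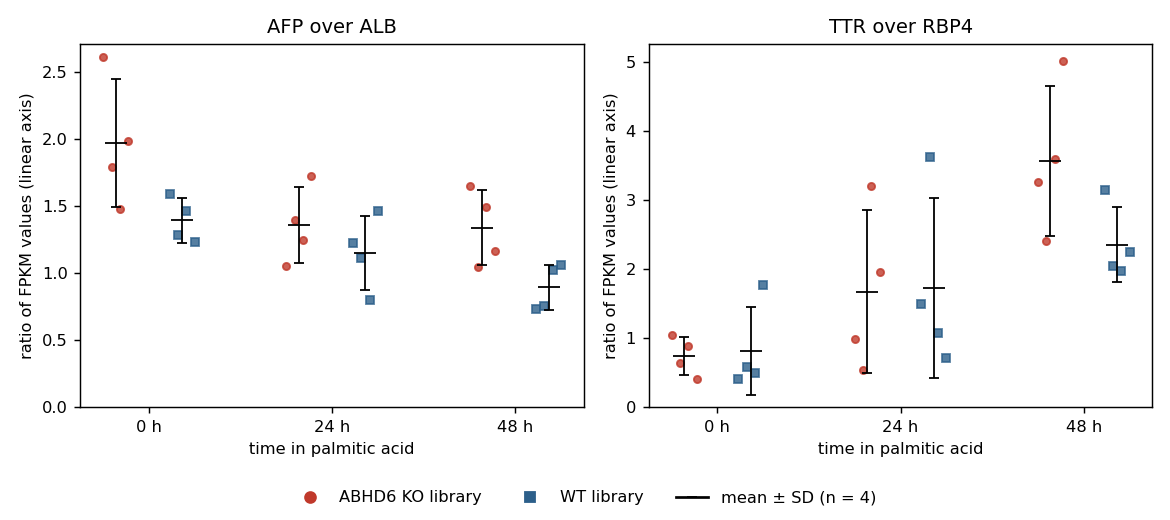
Ratio of FPKM values within each library (linear axes), AFP over ALB on the left and TTR over RBP4 on the right, for KO (red circles) left of WT (blue squares) at 0 h, 24 h and 48 h; bars are mean ± SD (n = 4). AFP over ALB in WT libraries is 0.735 to 1.06 at 48 h and 1.23 to 1.59 at 0 h, and TTR over RBP4 is above 1.9 in all 8 libraries at 48 h.

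After 48 h in palmitic acid AMBP, TTR and TF were called higher in both genotypes. ALB was called higher in WT cells, and its KO value was just outside the threshold. AMBP (ENSG00000106927.11, chromosome 9, 114060127 to 114078472, minus strand) encodes the shared precursor of alpha-1-microglobulin, a haem scavenger, and bikunin, a protease inhibitor. In KO libraries it had 93.5, 86.2, 137 and 128 FPKM at 0 h, 149, 151, 124 and 160.0 at 24 h, then 259, 254, 252 and 279 at 48 h. In WT libraries it had 106, 112, 129.9 and 149 FPKM at 0 h, 162, 147, 141 and 160.2 at 24 h, then 263, 242, 249 and 326 at 48 h. All 8 libraries at 48 h lay above all 16 earlier ones, and KO and WT overlapped at each time. The log2 fold change of 48 h over 0 h was 1.25 ± 0.15 in KO (limma, adjusted p = 4.47e-06) and 1.12 ± 0.15 in WT (adjusted p = 3.76e-05). It was 0.84 ± 0.15 in KO (adjusted p = 0.00848) and 0.81 ± 0.15 in WT (adjusted p = 0.0296) for 48 h over 24 h. For 24 h over 0 h it was 0.41 ± 0.15 in KO and 0.30 ± 0.15 in WT, neither called (adjusted p = 0.133 and 0.345). The KO value at 24 h was called at 0.65 with quantile normalization (adjusted p = 0.0297) and 0.69 with equal summed FPKM (0.0193). The 48 h over 24 h calls ended without the variance trend (adjusted p = 0.183 in KO and 0.403 in WT), and in WT also in a fit of only those groups (0.0823) and in 6 of 24 fits with 1 library left out (up to 0.105). The 48 h over 0 h calls held in both genotypes under every setting tried.

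TTR (ENSG00000118271.9, chromosome 18, 31557010 to 31599021, plus strand), transthyretin, carries thyroxine and, bound to RBP4, retinol. In KO libraries it had 37.8, 26.8, 26.6 and 17.1 FPKM at 0 h, 31.7, 30.9, 43.0 and 47.5 at 24 h, then 86.8, 61.7, 88.8 and 69.7 at 48 h. In WT libraries it had 14.7, 21.7, 29.2 and 52.1 FPKM at 0 h, 24.6, 36.3, 41.5 and 11.96 at 24 h, then 86.7, 51.9, 79.6 and 91.2 at 48 h. The KO libraries at 48 h were above every earlier KO library, while the lowest WT library at 48 h fell just below the highest at 0 h. The log2 fold change of 48 h over 0 h was 1.52 ± 0.36 in KO (limma, adjusted p = 0.00689) and 1.498 ± 0.36 in WT (adjusted p = 0.012). The WT call ended without the WT 0 h library numbered 0 (adjusted p = 0.0556) and in a fit of only those groups (0.0951). Only about 5.5 to 62.8 fragments stood behind a TTR value.

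RBP4 (ENSG00000138207.13, chromosome 10, 93591687 to 93601744, minus strand), the retinol carrier that binds TTR, had no call. In KO libraries it had 36.2, 42.1, 30.3 and 41.4 FPKM at 0 h, 32.0, 57.9, 13.4 and 24.3 at 24 h, then 26.6, 25.6, 24.7 and 13.9 at 48 h. In WT libraries it had 35.7, 37.2, 58.4 and 29.6 FPKM at 0 h, 16.4, 10.0, 38.7 and 16.8 at 24 h, then 27.5, 25.4, 40.5 and 40.6 at 48 h. The KO libraries at 48 h were all below those at 0 h, and the WT libraries overlapped. Between 48 h and 0 h the log2 fold change was -0.74 ± 0.38 in KO and -0.25 ± 0.38 in WT, neither called (limma, adjusted p = 0.27 and 0.806). TTR over RBP4 within a library averaged 0.744 ± 0.278 in KO and 0.815 ± 0.636 in WT at 0 h, 1.67 ± 1.18 in KO and 1.73 ± 1.31 in WT at 24 h, and 3.57 ± 1.08 in KO and 2.35 ± 0.546 in WT at 48 h (SD, n = 4 each). At 48 h the lowest library was above the highest at 0 h in both genotypes, at 2.41 against 1.05 in KO and 1.97 against 1.76 in WT. These ratios too are descriptions.

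TF was higher at 48 h in both genotypes, on the values given above. Its 48 h over 0 h log2 fold change was 0.83 ± 0.16 in KO (limma, adjusted p = 0.000735) and 0.59 ± 0.16 in WT (adjusted p = 0.022). The 4 KO libraries at 48 h were above every KO library at 0 h and 24 h, while the lowest WT library at 48 h lay below the highest at 0 h. The WT call of TF ended without the WT 0 h library numbered 0 or 1 (adjusted p = 0.0789 and 0.0938) or the WT 48 h library numbered 1 (0.0769), and with no variance trend (0.126), in a fit of only those groups (0.155) and over genes free of opposite-strand exon overlap (0.058). In KO, 48 h over 24 h was 0.69 ± 0.16 (adjusted p = 0.0427), a call lost in 13 of 24 fits with 1 library left out. For ALB the value was 0.73 ± 0.24 in KO, just outside the threshold (adjusted p = 0.0547), and 0.94 ± 0.24 in WT, a call (adjusted p = 0.0171). In each genotype all ALB libraries at 48 h were above all at 0 h. Of all genes tested, 15.2% in KO and 11.7% in WT did not overlap there. The KO response of ALB minus the WT response was -0.21 ± 0.34 (limma, adjusted p = 0.938). The WT call of ALB ended without the WT 0 h library numbered 0 (adjusted p = 0.0601) or the WT 48 h library numbered 1 (0.0541). It also ended with no variance trend (0.0684). The KO value of ALB was called under median-of-ratios rescaling, quantile normalization and rescaling to equal summed FPKM. AHSG (ENSG00000145192.12, chromosome 3, 186612923 to 186621318, plus strand), which encodes fetuin-A, a plasma inhibitor of calcium mineral deposits, had log2 fold changes of 0.53 ± 0.32 in KO and 0.42 ± 0.32 in WT, neither called.

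AHSG had 24.6, 33.4, 20.2 and 13.4 FPKM in KO libraries at 0 h, against 22.5, 44.7, 45.2 and 34.2 FPKM in WT libraries. At 24 h it had 24.0, 21.9, 27.9 and 15.8 FPKM in KO libraries, against 47.1, 17.5, 35.6 and 20.6 FPKM in WT libraries. At 48 h it had 38.4, 31.0, 31.0 and 26.7 FPKM in KO libraries, against 62.7, 52.3, 39.1 and 39.5 FPKM in WT libraries. The genotypes overlapped at 0 h and 24 h. All KO libraries at 48 h were just below all WT libraries at 48 h. Over the 3 times the log2 fold change of KO over WT was -0.54 ± 0.18, not called (limma, adjusted p = 0.457). An antisense gene, AC068631.1, overlaps the AHSG locus outside its exons, at a mean of 44.1 FPKM.

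ASGR2 (ENSG00000161944.16, chromosome 17, 7101322 to 7115700, minus strand) encodes a subunit of the receptor that clears glycoproteins stripped of sialic acid. It averaged lower at 24 h and 48 h than at 0 h in both genotypes, with calls in KO cells alone. In KO libraries it had 32.7, 56.1, 67.4 and 51.3 FPKM at 0 h, 29.5, 16.8, 28.8 and 18.9 at 24 h, then 40.3, 28.97, 23.8 and 16.1 at 48 h. In WT libraries it had 62.0, 53.6, 43.2 and 49.2 FPKM at 0 h, 28.6, 36.0, 25.4 and 28.5 at 24 h, then 54.6, 42.1, 33.3 and 23.9 at 48 h. At 24 h all libraries of both genotypes were below all of their own 0 h libraries, and at 48 h they overlapped. Of all genes tested, 11.2% in KO and 9.21% in WT did not overlap between 24 h and 0 h. In KO the log2 fold change was -1.12 ± 0.29 at 24 h (limma, adjusted p = 0.0233) and -0.94 ± 0.29 at 48 h (adjusted p = 0.0423). In WT it was -0.80 ± 0.29 at 24 h and -0.48 ± 0.29 at 48 h, not called (adjusted p = 0.148 and 0.4). The KO response minus the WT response was -0.32 ± 0.41 at 24 h and -0.46 ± 0.41 at 48 h, not called (limma, adjusted p = 0.944 and 0.868). The KO calls were fragile. The 24 h call ended in 5 of 24 fits with 1 library left out (adjusted p up to 0.0848), and the 48 h call in 6 (up to 0.17). The 24 h call also ended with quantile normalization (0.0532), equal summed FPKM (0.0703), no variance trend (0.0544), a fit of only those groups (0.0875) and only genes free of opposite-strand exon overlap (0.0511). The 48 h call ended with these 5 alternatives, with median-of-ratios rescaling and with no filter (adjusted p = 0.0536 to 0.258).

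FABP1 was not called over time. Relative to 0 h its log2 fold change was -0.13 ± 0.19 at 24 h and -0.33 ± 0.19 at 48 h in KO (limma, adjusted p = 0.772 and 0.322), and -0.65 ± 0.19 at 24 h and -0.56 ± 0.19 at 48 h in WT (adjusted p = 0.0534 and 0.0778). The WT value at 24 h was called without the WT 0 h library numbered 0 (adjusted p = 0.019) and in 5 other fits with 1 library left out. Rescaling moved the WT values toward 0, to -0.29 at 24 h (adjusted p = 0.49) and -0.11 at 48 h (0.828) with quantile normalization. Its KO values turned above 0 with quantile normalization or rescaling to equal summed FPKM. AFP had 0.19 ± 0.18 in KO and 0.29 ± 0.18 in WT at 48 h, not called. At 24 h it had -0.15 ± 0.18 in KO and -0.18 ± 0.18 in WT, and both values turned above 0 with the same rescalings. Those rescalings also called AFP higher at 48 h in KO, at 0.64 with quantile normalization (adjusted p = 0.0383) and 0.61 with equal summed FPKM (0.0449).

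ARG1 (ENSG00000118520.13, chromosome 6, 131573144 to 131584332, plus strand), arginase, the last enzyme of the urea cycle, was the lowest and most scattered member. In KO libraries it had 1.78, 1.29, 0 and 8.41 FPKM at 0 h, 1.12, 5.94, 12.3 and 9.36 at 24 h, then 12.7, 12.9, 42.2 and 7.64 at 48 h. In WT libraries it had 5.37, 16.5, 49.999 and 22.9 FPKM at 0 h, 11.9, 0.963, 4.45 and 8.99 at 24 h, then 10.1, 8.55, 7.82 and 8.17 at 48 h. The 4 WT libraries at 0 h were widely spread, and those at 48 h were close together. In KO the 48 h over 0 h log2 fold change was 2.93 ± 0.82 (limma, adjusted p = 0.0225). It was no longer called without the KO 0 h library numbered 1 or 2 (adjusted p = 0.0501 and 0.102), without the KO 48 h library numbered 2 (0.0907), or in a fit of only those groups (0.114). In WT it was -1.02 ± 0.82 (adjusted p = 0.562). KO over WT at 0 h was -3.17 ± 0.82, not called (adjusted p = 0.254). A value of ARG1 stood on 0 to about 41.2 fragments, with a median of 8.5.

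**Figure D4:**
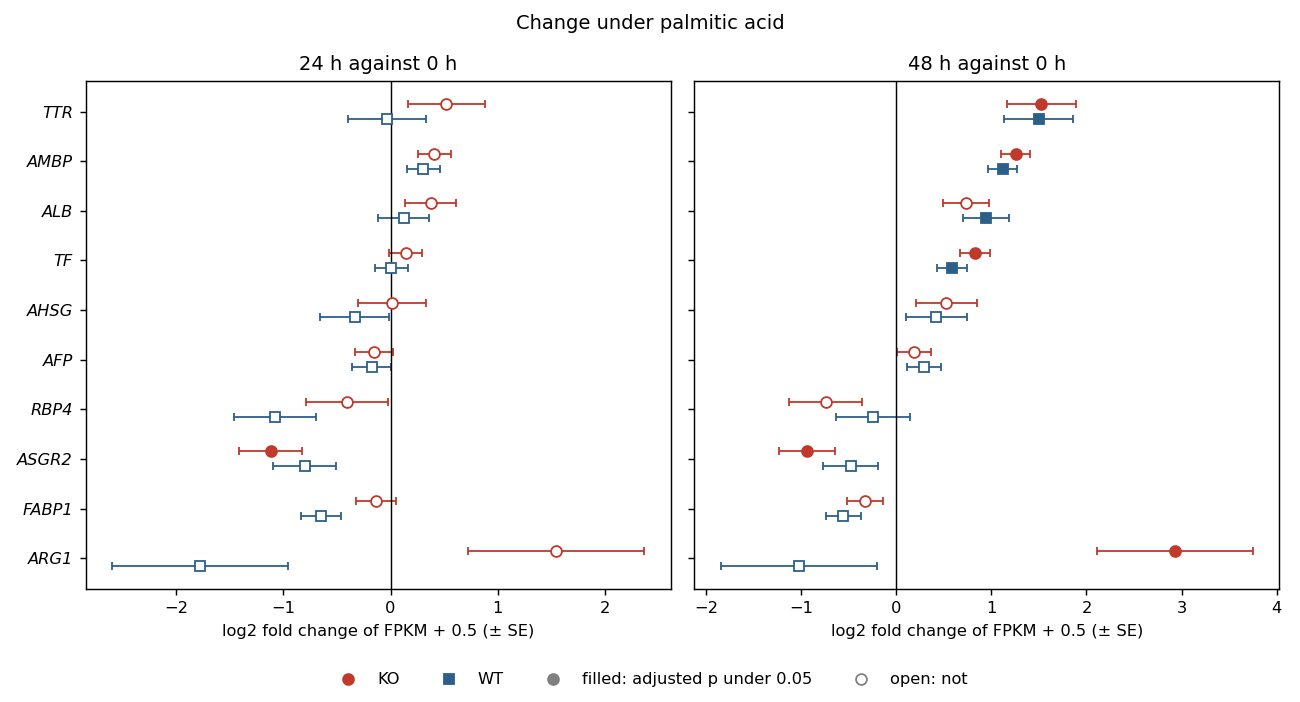
Log2 fold change of FPKM + 0.5 with SE at 24 h (left) and 48 h (right) over 0 h, for KO (red circles) above WT (blue squares); filled symbols have an adjusted p under 0.05. At 48 h TTR, AMBP and TF are filled on the right of 0 in both genotypes, ALB in WT and ARG1 in KO, and ASGR2 is filled on the left in KO.

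Counted over the 10 genes, 48 h over 0 h in KO had 5 calls, with AMBP, ARG1, TF and TTR higher and ASGR2 lower. All genes tested had 9.82% called, 3.4% higher and 6.42% lower. In WT it had 4 calls, all higher (ALB, AMBP, TF and TTR), where 6.79% of all genes were called and 2.57% higher. For 48 h over 24 h there were 2 calls in KO, both higher, against 0.516% of all genes called and 0.11% higher. In WT there was 1, higher, against 0.122% and 0.058%, and the log2 fold change was above 0 for 10 of 10 members with a median of 0.76, against 0 over all genes tested. In KO it was above 0 for 8 members, with a median of 0.435. For 24 h over 0 h it was above 0 for 3 members in WT (median -0.256) and 6 in KO (median 0.078). For 48 h over 0 h it was above 0 for 6 in WT and 7 in KO. For 24 h over 0 h there was 1 call in KO, lower, against 5.64% called and 3.51% lower, and 0 in WT, against 4.06%. That WT comparison had 4 members at an unadjusted p under 0.05, against 2733 of all 17252 genes. Libraries did not overlap between 24 h and 0 h for 1 member in KO and 1 in WT, against 11.2% and 9.21% of all genes. Between 48 h and 0 h it was 5 in KO and 2 in WT, against 15.2% and 11.7%. Between 48 h and 24 h it was 3 in KO and 4 in WT, against 6.42% and 3.77%. The comparisons within a genotype share libraries. The KO response minus the WT response (limma, an interaction term) was called for no member at 24 h or 48 h, over 20 tests, against 0% and 0.0522% of all genes, with 1 member (ARG1) at an unadjusted p under 0.05 at each time, against 950 genes at 24 h and 1139 at 48 h. For ARG1 at 48 h that difference was 3.95 ± 1.16 with a 95% interval of 1.55 to 6.36 on the log2 scale (adjusted p = 0.449).

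Depth and composition moved with time beside these changes. Mitochondrially encoded genes held 13.8% ± 0.798 of summed FPKM in KO and 11.1% ± 0.787 in WT at 48 h, against 3.89% ± 0.519 in KO and 3.53% ± 0.291 in WT at 0 h (SD, n = 4 each). The antisense share was 44.6% ± 0.491 in KO and 45.9% ± 1.37 in WT at 48 h, against 57.2% ± 0.551 in KO and 57.0% ± 0.867 in WT at 0 h. Of the hepatocyte markers, APOA1° was lower at 24 h by -1.57 ± 0.19 in KO and -0.86 ± 0.19 in WT, and FGB by -0.78 ± 0.16 in KO and -0.60 ± 0.16 in WT (limma, adjusted p up to 0.0323). The FGB call in WT ended under all 3 rescalings (adjusted p = 0.0642 to 0.278). With equal summed FPKM the FGB call in KO (0.0753) and the APOA1° call in WT (0.0554) ended too. At 48 h APOA1° was lower in KO (-1.24 ± 0.19, adjusted p = 0.000102), APOH was higher in KO (0.89 ± 0.26, adjusted p = 0.0267) and APOB° was higher in WT (0.63 ± 0.18, adjusted p = 0.0288). The APOH and APOB° calls each held in 19 of 24 fits with 1 library left out (limma, adjusted p up to 0.0927 and 0.111). Both ended with no variance trend. APOH also ended over genes free of opposite-strand exon overlap, and APOB° in a fit of only those groups. The part of these shifts in the changes with time was not tested. Under 3 rescalings of the libraries AMBP, TTR and TF at 48 h stayed called in both genotypes and ALB in WT. The 10 genes together had 1024 ± 116 FPKM in KO and 1497 ± 218 in WT at 0 h, 1028 ± 119 in KO and 1203 ± 224 in WT at 24 h, and 1290.2 ± 134 in KO and 1681 ± 60.5 in WT at 48 h. FABP1 made up 23.7% of that sum in KO and 28.1% in WT at 48 h, against 37.6% in KO and 46.7% in WT at 0 h.

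Other genes of the same systems were counted from lists. None of the lists of other plasma carriers, protease inhibitors, iron, vitamin A, fatty acid binding, urea cycle, receptor or transcription factor genes had a call for KO against WT over the 3 times. For that comparison 0.18% of all genes were called. Of the 20 other plasma carrier and binding proteins 13 were tested, and AFM, the next relative of albumin, was at 0 in 23 of 24 libraries. At 48 h over 0 h, 2 of the 13 were higher in KO, against 3.4% of all genes, and 1 was higher and 1 lower in WT, against 2.57% and 4.22%. IGFBP1, an insulin-like growth factor carrier, was called in both, with 7.03 to 22.7 FPKM in KO and 4.74 to 10.1 FPKM in WT at 48 h, and it is listed at 0 in all 8 libraries at 0 h. APOH, which binds phospholipid in plasma, was higher in KO (0.89 ± 0.26, limma, adjusted p = 0.0267), with the limits of that call given above. CP°, the copper carrier ceruloplasmin, was lower in WT (-0.75 ± 0.19, limma, adjusted p = 0.019), a call that ended under 2 of 3 rescalings. At 24 h IGFBP1 was called higher and CP° lower in WT, and GC, the vitamin D carrier, lower in KO (-1.63 ± 0.47, adjusted p = 0.0424). These 24 h calls were fragile: IGFBP1 held in 3 of 24 fits with 1 library left out and 1 of 3 rescalings, and CP° and GC each held in 16 of 24 fits and in 0 of 3 rescalings. At 24 h over 0 h, 1.46% of all genes were called higher and 2.6% lower in WT, and 3.51% lower in KO.

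Among 11 of 13 serum protease inhibitors tested, 1 was called, SPINK1, a trypsin inhibitor, higher at 48 h by 4.46 ± 1.11 in KO (limma, adjusted p = 0.00975) and 4.77 ± 1.11 in WT (adjusted p = 0.00894), and at 24 h in WT by 3.89 ± 1.11 (adjusted p = 0.0479). In these comparisons 3.4% of all genes were called higher at 48 h in KO, 2.57% at 48 h in WT and 1.46% at 24 h in WT. The 24 h call of SPINK1 held in 5 of 24 fits with 1 library left out and 6 of 11 other settings. WT libraries at 0 h had 0 to 98.8 FPKM of SPINK1. SERPINA1, the most familiar of the inhibitors, averaged 333 ± 9.26 FPKM in KO and 386 ± 70.5 FPKM in WT at 48 h, against 304 ± 19.5 in KO and 346 ± 36.4 in WT at 0 h (SD, n = 4), with no call. Of 12 genes of iron carriage and uptake 10 were tested. At 48 h over 0 h in KO, 3 were higher, where 3.4% of all genes were: the transferrin receptor TFRC (1.25 ± 0.32, adjusted p = 0.0113), the ferritin heavy chain FTH1° (1.34 ± 0.18, adjusted p = 1.23e-05) and the iron exporter SLC40A1 (2.89 ± 0.91, adjusted p = 0.0467). TFRC had 17.2 to 28.98 FPKM at 48 h and 7.27 to 11.5 FPKM at 0 h in KO libraries, and 15.9 to 30.2 FPKM at 48 h and 13.7 to 43.0 FPKM at 0 h in WT libraries. In WT at 48 h, and in both genotypes at 24 h, the only iron gene called was FTH1°, higher, where 1.46% to 2.57% of all genes were called higher. The SLC40A1 call held in 6 of 24 fits with 1 library left out.

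Of 12 genes of vitamin A handling 7 were tested, and the retinol dehydrogenase RDH11 alone was called, higher at 48 h in KO (1.70 ± 0.44, limma, adjusted p = 0.0123). At 48 h over 0 h in KO, 3.4% of all genes were called higher and 6.42% lower. Of 13 other genes of fatty acid binding and uptake 7 were tested and only SLC27A5° was called, lower at 48 h in KO over 0 h and over 24 h (-0.71 ± 0.21 and -0.89 ± 0.21, adjusted p = 0.0285 and 0.0491). The first of these calls ended under all 3 rescalings. The second held in 6 of 24 fits with 1 library left out, in a comparison where 0.406% of all genes were called lower. Of 10 urea cycle and arginine genes 8 were tested. ASS1, argininosuccinate synthase, was higher in KO at 24 h (3.88 ± 0.79, adjusted p = 0.00337) and 48 h (3.76 ± 0.79, adjusted p = 0.00229), with 14.1 to 31.7 FPKM at 48 h and 0 to 7.52 FPKM at 0 h. WT libraries had 20.8 to 44.0 FPKM of ASS1 at 48 h and 1.72 to 28.6 FPKM at 0 h, with no call. ARG2°, the mitochondrial arginase, was lower in both genotypes at both times, by -0.62 to -0.91, and NAGS was lower in WT at 24 h (-2.89 ± 0.68, adjusted p = 0.0146). All 4 ARG2° calls ended with quantile normalization. At 24 h and 48 h over 0 h, 2.13% and 3.4% of all genes were called higher in KO. Over these times and both genotypes, 2.6% to 6.42% were called lower.

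The list of glycoprotein and albumin receptors holds 11 genes, not all of them such receptors, and 10 were tested. IGF2R (1.56 ± 0.45, limma, adjusted p = 0.0372) and MCFD2° (0.97 ± 0.27, adjusted p = 0.0266) were higher at 48 h in WT, where 2.57% of all genes were. ASGR1, the partner subunit of ASGR2, had 0 to 3.48 FPKM in KO and 4.15 to 15.7 FPKM in WT libraries at 0 h, with no call. At that time 2.72% of all genes had no overlap. The genotypes overlapped for ASGR1 at 24 h (2.68 to 4.84 FPKM in KO and 2.57 to 10.4 in WT). They also overlapped at 48 h (2.31 to 12.6 FPKM in KO and 3.14 to 15.6 in WT). Of 18 hepatocyte transcription factors and AFP regulators 16 were tested. ZFHX3°, a repressor of AFP, was lower at 24 h and 48 h in both genotypes (-0.96 to -1.20), FOXA1° was lower at 24 h in WT (-1.99 ± 0.44, adjusted p = 0.00965) and CEBPA° at 48 h in WT (-1.19 ± 0.34, adjusted p = 0.033). The CEBPA° call ended under all 3 rescalings, and the ZFHX3° call at 48 h in WT ended with rescaling to equal summed FPKM. Of all genes, 2.6% at 24 h and 4.22% at 48 h were called lower in WT, and 3.51% and 6.42% in KO. HNF4A averaged 6.67 ± 2.35 FPKM in KO and 10.3 ± 1.81 FPKM in WT at 48 h, against 9.87 ± 3.51 in KO and 12.3 ± 3.79 in WT at 0 h, with no call.

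Genes were ranked by how like ALB their log2(FPKM + 0.5) was over the 24 libraries. The ranking held 2186 protein-coding genes outside the members, with a mean of at least 20 FPKM. First came NIPSNAP1 (Pearson r = 0.755), CLU (0.745), ERP29° (0.743), MSMO1 (0.733) and SCD (0.716). Of the members, which the ranking left out, TF (0.785) and AHSG (0.730) were most like ALB. The libraries share the 6 groups and the depth that moved with time, so these values are descriptions.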

How the data were processed

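RNA from 24 Huh7 libraries was sequenced, 4 in each of 6 groups set by the labels. The deposited FPKM table was made by the authors with STAR, Cufflinks and Cuffdiff on GRCh38, per the submitters' processing notes, and depth was inferred from the size of 1 fragment in 4786 single-transcript genes. Of 58024 IDs, 45 chromosome Y copies were left out, and 57375 of the rest carry a GENCODE release 29 symbol, matched without ID version. Genes averaging at least 0.5 FPKM (17252) were tested on log2(FPKM + 0.5) with limma 3.58.1 (R 4.3.3), all 6 groups in 1 model with an intensity trend, 18 residual degrees of freedom and Benjamini-Hochberg adjustment over all genes in each of 12 comparisons. Ratios, sums and figures were made with Python 3.11.15, pandas 2.3.3, numpy 2.4.6 and matplotlib 3.10.9. The fits were tested on simulated data.

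The members and lists were chosen with earlier results of these data known. All 10 members are named, and of the lists each called gene, plus AFM, SERPINA1, ASGR1 and HNF4A, which were chosen after their values were seen. Alternatives were other pseudocounts, filters, scalings, variance models, a replicate block, fits of the compared groups and leaving out each library. Rescaling to equal summed FPKM and leaving out genes whose exons overlap one on the other strand were chosen after seeing the data. Fragment estimates cover counting error only, and TF has none.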

Additional observations from a re-analysis of the deposited data

Results flagged for a closer look

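In each of the 60 sets of 4 libraries (10 genes in 6 groups) the highest and the lowest library were compared with the nearest of the others, relative to the range of the set. Chance singles out about 1 in 20 such sets, and 4 were singled out here. AFP had 171.927 FPKM in the KO 0 h library numbered 0, where the next lowest had 202.333. AFP had 227.448 FPKM in the WT 0 h library numbered 1, where the next highest had 195.781. RBP4 had 13.8856 FPKM in the KO 48 h library numbered 3, where the next lowest had 24.7119. ARG1 had 42.1734 FPKM in the KO 48 h library numbered 2, where the next highest had 12.8774, and the call of ARG1 at 48 h in KO ended without that library (limma, adjusted p = 0.0907).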

How the results depend on the processing

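Counts are of the 10 members called by limma. KO against WT at 0 h had 0 calls, 1 with the replicate block and 1 with rescaling to equal summed FPKM (FABP1 in both), and 0 to 2 with 1 library left out. At 24 h and 48 h that comparison had 0 in every fit with 1 library left out, as had both interactions. Over the 3 times it had 2, but 0 with no variance trend, and 2 to 2 with 1 library left out. For 24 h over 0 h in WT the count was 0, but 1 with a filter at 2 FPKM, 1 with the replicate block and 1 in a fit of only the groups compared, and 0 to 1 with 1 library left out. For 48 h over 0 h in WT it was 4, but 2 with no variance trend, 2 in a fit of only the groups compared and 3 over genes with no opposite-strand exon overlap (TF lost), and 2 to 4 with 1 library left out. For 48 h over 24 h in WT it was 1, but 0 with no variance trend and 0 in a fit of only the groups compared, and 0 to 1 with 1 library left out. For 24 h over 0 h in KO it was 1, but 0 with no variance trend, 0 in a fit of only the groups compared and 0 over the 9303 genes with no opposite-strand exon overlap, and 0 to 1 with 1 library left out. With quantile normalization or equal summed FPKM it was 1, but AMBP, higher, in place of ASGR2, lower. For 48 h over 0 h in KO it was 5, but 3 in a fit of only the groups compared, 4 with no filter, no variance trend or only genes with no such overlap (ASGR2 lost), 6 with a filter at 2 FPKM (ALB gained), 5 with median-of-ratios rescaling (ALB gained, ASGR2 lost) and 6 with quantile normalization or equal summed FPKM (ALB and AFP gained, ASGR2 lost), and 3 to 6 with 1 library left out. For 48 h over 24 h in KO it was 2, but 0 with no variance trend, 1 with the replicate block and 1 over genes with no opposite-strand exon overlap, and 1 to 2 with 1 library left out. The causes were not tested.

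Same-numbered libraries were only weakly alike: over 3341 genes their deviations from the group means correlated at -0.125 to 0.144 in 60 pairs, with 4 over 0.1. Such weak values cannot show whether a number marks a shared culture or day. With the replicate block FABP1 was also called at 48 h over 0 h in WT (adjusted p = 0.0365). No called value changed sign. Scaling moved the split of higher and lower calls over all genes. At 48 h over 0 h it was 587 higher and 1108 lower in KO and 443 and 728 in WT, but 1196 and 531 in KO and 851 and 329 in WT with equal summed FPKM, which moved the median of all genes by 0.294 in KO and 0.248 in WT. Few fragments limit ARG1, RBP4, TTR and ASGR2 most.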

Other observations

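Of the 4 fetal liver or hepatoma markers, H19 was at 0 in every library. IGF2°, the fetal growth factor, was lower at 24 h in KO (-0.84 ± 0.24, limma, adjusted p = 0.0437) and at 24 h and 48 h in WT (-0.87 ± 0.24 and -0.84 ± 0.24, adjusted p = 0.0438 and 0.0383), and these calls ended under all 3 rescalings. GPC3, glypican-3, a hepatoma surface marker, was higher at 48 h than at 24 h in KO (0.63 ± 0.14, limma, adjusted p = 0.0456). That call held in 12 of 24 fits with 1 library left out (adjusted p up to 0.179) and in 7 of 11 other settings.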
